A study of Homo sapiens with 6 samples.

Results

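Chromosome 19 carries the densest collection of zinc finger genes in the human genome. The genes described here were all protein-coding genes of that chromosome whose GENCODE symbol begins with ZNF and a digit. There were 249 of them, out of 58302 genes in the files and 515 protein-coding ZNF genes on all chromosomes, and they made up 17% of the 1463 protein-coding genes of chromosome 19. Their level was compared between cells expressing control shRNA (3 libraries) and cells expressing a Smyca shRNA (3 libraries). Both groups are labelled as MDA-MB-231, an established breast cancer cell line, and both carry an shRNA, so that the control differs from the knockdown only in the shRNA target as far as the labels tell. Smyca is a long noncoding RNA that RefSeq and GENCODE name MIR23AHG. It lies on the minus strand of chromosome 19 in GRCh38, from 13823880 to 13842928, in the same chromosome arm as 85 of the 249 ZNF genes. This span and the counts are those of the whole gene, which also hosts miRNA precursors, and are not specific to the Smyca transcript. The comparison asks how its ZNF neighbours and their relatives stood when it was reduced. The study's text calls the libraries of a group biological repeats. The labels do not say whether they came from separate cultures, and the p-values measure the spread between these libraries. Ratios are control over Smyca knockdown, so a positive log2 ratio means a higher level in the control.

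Most of these genes encode proteins with a row of C2H2 zinc fingers, small domains that hold a zinc ion and read a few bases of DNA each. Many carry a KRAB box at the amino end as well. A KRAB box binds the corepressor TRIM28, which brings a histone methyltransferase, HP1 proteins and deacetylases to the bound site, and a well known task of this system is to keep retrotransposons silent. The genes arose by repeated local duplication, which is why they stand in clusters and resemble each other in sequence. In the proteins predicted from GENCODE coding sequences, 215 of the 249 had a KRAB box and 34 had none. The number of fingers ran from 0 (in 2 genes that read through into a neighbour) to 36, with a median of 12 and the highest number in ZNF208. The median was 13 fingers with a KRAB box and 9 without.

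The resemblance in sequence can be seen in the transcripts. The following run of 24 bases was the one held by the most of these genes, and it is shown as the stretch of sequence most common among them. Its capitals mark the codons of the linker that joins one finger to the next.
Finger linker: aattcatACTGGAGAGAAACCTta
It occurred in 41 of the 249 genes (16.5%), in 12 of the 266 protein-coding ZNF genes of other chromosomes (4.51%), and in 5 of 19193 other protein-coding genes (0.0261%). ZNF845 held 6 copies. The run was picked for its count in the 249 genes, so its larger share there was favoured by the choice. At the length of a read the genes were far more distinct. Of the 249, 174 shared no window of 150 bases with any other gene, 34 shared more than 10% of their windows, and 11 shared more than 50%. Of those 11, 2 were measured well enough to be tested (ZNF490 and ZNF724), and none had more than 30 counts in any library. For such genes, and for ZNF324 with 27% of its windows shared, counts may have been split between copies.

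The promoters shared features that the choice of genes did not use. RefSeq start sites (GRCh38.p14) gave 270 promoters of 218 genes, each from 250 bases before the start to 50 after it. Only the 250 bases before each start were read for the values below. In these bases the median GC content of the ZNF promoters was 59.8% against 58% over all 35116 promoters. The median ratio of observed to expected CpG was 0.736 against 0.558. The letters ACTTCCGG, a motif of ETS family factors, were found on either strand in 11.9% of the ZNF promoters and 3.42% of all promoters. The Sp1 motif GGGCGG was in 61.9% against 42.6%, and the YY1 motif AAGATGG in 5.93% against 3.7%. By contrast, the E-box CACGTG, to which Myc and Max bind, was in 4.07% against 6.34%, and the AP-1 motif TGACTCA in 2.22% against 4.2%. The Smad palindrome GTCTAGAC was in 0.37% (1 gene) against 0.182%. None of these motifs contains another. Of the 32 genes with the ETS motif, 19 lay in the cluster nearest the end of the long arm, where they made up 44.2% of 43 genes. The promoters of 4 genes are printed next, without the 50 bases after the start. They are those of the ZNF genes with the smallest p on each side (ZNF160, ZNF461 and ZNF324) and that of ZNF274, whose protein binds ZNF genes themselves. They run 5′ to 3′ on the strand of the gene, with the ETS, Sp1, E-box and AP-1 motifs of either strand in capitals.
ZNF160 (GRCh38, minus strand, chr19:53103423-53103672): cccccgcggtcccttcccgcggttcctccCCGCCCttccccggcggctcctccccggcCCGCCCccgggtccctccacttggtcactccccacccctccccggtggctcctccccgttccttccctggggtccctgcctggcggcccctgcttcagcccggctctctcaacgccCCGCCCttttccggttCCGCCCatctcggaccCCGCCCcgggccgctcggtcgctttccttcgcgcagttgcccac
ZNF461 (GRCh38, minus strand, chr19:36666838-36667087): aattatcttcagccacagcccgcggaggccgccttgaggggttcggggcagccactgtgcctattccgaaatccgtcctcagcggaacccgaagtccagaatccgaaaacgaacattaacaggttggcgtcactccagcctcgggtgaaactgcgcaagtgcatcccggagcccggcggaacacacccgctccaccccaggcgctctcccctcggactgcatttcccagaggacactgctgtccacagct
ZNF274 (GRCh38, plus strand, chr19:58182811-58183060): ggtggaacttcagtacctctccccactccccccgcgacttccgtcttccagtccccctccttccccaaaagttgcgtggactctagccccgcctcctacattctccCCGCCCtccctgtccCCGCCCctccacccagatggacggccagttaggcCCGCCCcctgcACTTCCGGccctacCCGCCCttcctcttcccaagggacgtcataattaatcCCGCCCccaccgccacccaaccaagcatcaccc
ZNF324 (GRCh38, plus strand, chr19:58466830-58467079): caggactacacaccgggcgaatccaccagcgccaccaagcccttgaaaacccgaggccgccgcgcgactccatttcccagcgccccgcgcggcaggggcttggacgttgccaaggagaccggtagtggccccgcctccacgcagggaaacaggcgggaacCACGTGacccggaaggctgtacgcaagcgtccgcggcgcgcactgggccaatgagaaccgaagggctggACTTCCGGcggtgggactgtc
The stretch before ZNF160 held 5 Sp1 motifs and that before ZNF274 held 5 Sp1 motifs and the ETS motif. Before ZNF324 lay an E-box and the ETS motif, the latter starting 21 bases before the start site. The ZNF461 stretch held none of the 4 motifs.

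The libraries held between 14999307 and 16501085 counts and varied beyond counting noise with a biological coefficient of variation of 25.2%. MIR23AHG itself stood at 25, 19.5 and 22 CPM (counts scaled to the normalized library size) in the control libraries and at 10.5, 6.97 and 5.61 in the knockdown libraries, so that the groups did not overlap in the labelled direction (log2 ratio 1.53, SE 0.26, adjusted p = 0.111 by edgeR's quasi-likelihood test). Its adjusted p was 0.0152 without control replicate 3 and 3.96e-05 with DESeq2. With any other library left out, it lay between 0.119 and 0.44 by edgeR. Some markers went against the labelled cell line in every library, and others went with it. SPARC, a mesenchymal marker of MDA-MB-231, did not exceed 0.677 CPM. The other listed mesenchymal markers were present, with CD44 between 9.31 and 37.2, AXL between 18.1 and 51.1, CAV1 between 27.9 and 101, and VIM between 71.2 and 305. The luminal markers, which were listed as low in this line, went with the label. ESR1, PGR and FOXA1 did not exceed 0.192 CPM and GATA3 did not exceed 3.86. Of the markers of other cells, PTPRC was at 0 in all 6 libraries, ALB did not exceed 0.256 CPM and PECAM1 did not exceed 4.01. Epithelial and hepatic or intestinal genes that were looked up after the values had been seen were high, with EPCAM between 236 and 336 CPM, KRT8 between 4249 and 7408, VIL1 between 220 and 501, FOXA2 between 118 and 153, CDH1 between 71.5 and 300 and HNF4A between 65.4 and 194. Some of these markers moved with the groups. VIM stood at 305, 200 and 148 CPM in the control and at 71.2, 105 and 130 in the knockdown, VIL1 at 337, 343 and 220 against 457, 501 and 422, and KRT8 at 4715, 4775 and 4249 against 5083, 6504 and 7408, all without overlap, with log2 ratios of 1.09, -0.62 and -0.47 and adjusted p-values of 0.131, 0.155 and 0.201 by edgeR. TWIST1 had 0 counts throughout, and CDH2 and MMP1 did not exceed 0.064 CPM. The libraries are therefore called by their labels only, and the part of these markers in the results below was not tested.

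Most chromosome 19 ZNF genes were expressed at low levels. Of the 249, 166 passed the filter on low counts and 83 did not. Of those 83, 39 had 0 counts in all 6 libraries, and the highest count of any was 26, in a library of ZNF93. Per kilobase of gene length, the 166 tested genes ran from 0.194 to 123 CPM with a median of 2.8, and 149 of them (89.8%) lay below 11.8, the median of all genes tested. Genes without a KRAB box were tested in 29 of 34 cases and had a median of 10.4 CPM per kilobase, whereas KRAB genes were tested in 137 of 215 cases and had a median of 2.38. Of the counts in all tested genes, the tested ZNF genes took 0.188%, 0.19% and 0.222% in the control libraries and 0.177%, 0.166% and 0.163% in the knockdown libraries. The 5 most abundant (ZNF787, ZNF579, ZNF146, ZNF865 and ZNF444) held 28.6% of the CPM of all 249, and none of these 5 has a KRAB box.

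None of the 166 tested ZNF genes passed the criteria for a differentially expressed gene (DEG), which are an adjusted p under 0.05 in edgeR's quasi-likelihood test together with a ratio that reaches 1.5 or does not exceed 0.66. Over all 15075 genes tested, 4 passed, or 0.0265%. An unadjusted p under 0.05 was reached by 14 ZNF genes on the side of the control (8.43%), beside 10.4% of all genes tested, and by 3 on the side of the knockdown (1.81%), beside 8.74%. DESeq2, run as an alternative, called 2 ZNF genes as DEGs (ZNF160 and ZNF461), while it called 5.89% of all genes, and gave an unadjusted p under 0.05 to 10 on the side of the control and 5 on the other, beside 10.1% and 9.47% of all genes.

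The distribution as a whole lay toward the control. The log2 ratio was above 0 in 110 of the 166 tested ZNF genes (66.3%), beside 53.4% of all genes tested. Its median was 0.20 for the ZNF genes, 0.04 over all genes, 0.08 for the 751 other tested protein-coding genes of chromosome 19 and -0.01 for the 214 tested ZNF genes of other chromosomes. The 3 control libraries lay above the 3 knockdown libraries without overlap in 31 ZNF genes (18.7%), beside 12.4% of all genes, and below them in 6 (3.61%), beside 12.5%. A ratio of at least 1.5 was found for 23 ZNF genes (13.9%), close to the 15.6% of all genes, and a ratio of at most 0.66 for 2, ZNF429 and ZNF324B (1.2%), where all genes gave 5.54%. A median over genes that passed a filter is a description and was not tested.

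The shift rested in large part on 1 library. Mean log2 levels of the tested ZNF genes, each taken relative to the gene's mean over the 6 libraries, were -0.03, -0.01 and 0.23 in control replicates 1 to 3, and -0.04, -0.15 and -0.01 in knockdown replicates 1 to 3. Control replicate 3 stood above the other 5 libraries, while control replicate 1 lay below knockdown replicate 3, so that the groups overlapped in this mean. It was the library with the highest level for 85 of the 166 ZNF genes (51.2%), and for 22.1% of all genes tested. When it was left out, the median log2 ratio of the ZNF genes was 0.03, next to 0.01 over all genes, and 90 of 167 tested genes (53.9%) had a ratio above 1, next to 50.6% of all genes. The 2 control libraries left lay above the knockdown without overlap in 39 of the 167 (23.4%), where all genes gave 25.7%, and below it in 27 (16.2%), where all genes gave 23.3%. The summed CPM of the 166 genes was 1906, 1817 and 2128 in the control (1950 ± 160, SD, n = 3) and 1764, 1724 and 1697 in the knockdown (1728 ± 34, SD, n = 3), so that for this sum, to which the abundant genes contribute most, all 3 control libraries lay higher. For the 137 tested KRAB genes alone the sums overlapped, at 831, 832 and 1057 against 807, 742 and 890. For the 29 without a KRAB box they were 1075, 985 and 1071 against 957, 982 and 806. With 3 libraries against 3, an exact permutation test cannot give a two-sided p below 0.1.

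Control replicate 3 differed from the other control libraries in other ways as well. It held the lowest HNF4A level of all libraries, 65.4 CPM where the other 5 had 168 to 194, the lowest CDH1 level, 71.5 CPM, and the lowest CAV1 level, 27.9 CPM. For CDH1 and CAV1 it lay close to knockdown libraries, the lowest of which had 77.6 and 30 CPM. The file of control replicate 2 raised a further doubt. Its count column and its FPKM column, which in the other 5 libraries hold the same reads, did not match. Whole reads recovered from its FPKM column had a correlation of 0.954 with its own counts over the 15075 tested genes on a log2 scale, and of 0.993 with the counts of control replicate 3. The counts were used here. With the recovered reads in their place, 0 ZNF genes were DEGs, 26 of 167 had an unadjusted p under 0.05 on the side of the control and 5 on the side of the knockdown, beside 10.6% and 9.81% of all genes at this setting, and the median log2 ratio was 0.26. Which column belongs to that sample cannot be told from the files.

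**Figure D1:**
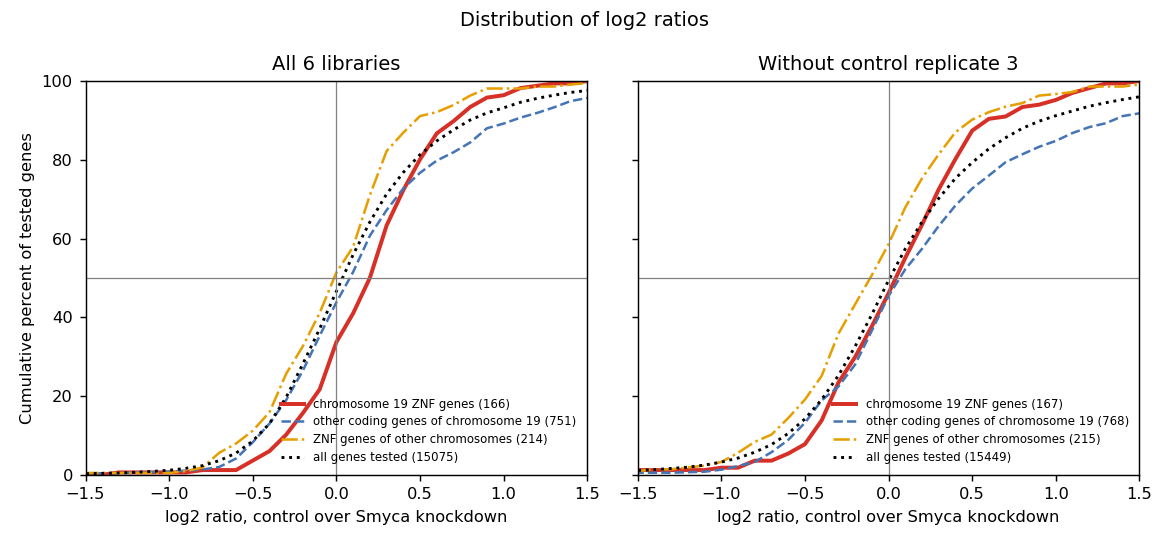
Cumulative percent of tested genes (vertical axis) at or below a log2 ratio of control over Smyca knockdown (horizontal axis), with all 6 libraries (left) and without control replicate 3 (right). The red curve of the chromosome 19 ZNF genes crosses 50% at 0.20 on the left, to the right of all 3 other curves, and at 0.03 on the right, next to the curve of all genes at 0.01.

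Among the ZNF genes on the side of the control, ZNF160 had the smallest p. ZNF160 (ENSG00000170949, minus strand, 53066606 to 53103434) encodes a KRAB protein with 20 fingers and no read-length window shared with another gene. Its level was 23.8, 17.8 and 13.6 CPM in the control and 7.49, 8.30 and 11.3 in the knockdown. All control libraries lay higher, though control replicate 3 and knockdown replicate 3 came close to each other. The log2 ratio was 1.03 with an SE of 0.27, and the adjusted p was 0.126 by edgeR. ZNF160 passed the DEG criteria without control replicate 3, where the log2 ratio was 1.20 and the adjusted p 0.0209, and also without the filter on low counts (adjusted p = 0.0319), where 3.01% of all genes passed, and with DESeq2 (adjusted p = 0.0165).

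ZNF461, another KRAB gene, was lower in abundance, at 2.22, 3.14 and 3.52 CPM in the control and 1.52, 0.95 and 0.858 in the knockdown. These values rest on 36 to 55 counts per control library and 13 to 24 per knockdown library. Its log2 ratio of 1.41 (SE 0.38, adjusted p = 0.128 by edgeR) was the highest of the 166, and DESeq2 gave it an adjusted p of 0.0495. Near it in the same cluster lay ZNF529, at 3.89, 3.26 and 6.02 CPM against 2.48, 2.09 and 1.91, and ZNF571, at 1.85, 2.34 and 1.86 against 1.14, 0.887 and 1.06. Both are KRAB genes whose groups did not overlap. Their log2 ratios were 1.02 and 0.97.

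ZNF274 encodes a KRAB protein with 5 fingers that binds the ends of other ZNF genes and brings the methyltransferase SETDB1 there. Its level was 30.1, 21.7 and 34.3 CPM in the control and 18.5, 17 and 19.2 in the knockdown. The lowest control library lay only slightly above the highest knockdown library, and the log2 ratio was 0.65 (SE 0.20, adjusted p = 0.15 by edgeR). ZNF579 has 8 fingers and no KRAB box and is the second most abundant of the group. It stood at 165, 153 and 110 CPM against 104, 94.9 and 62.3, with a log2 ratio of 0.72 (SE 0.23, adjusted p = 0.158 by edgeR). Without control replicate 3 its log2 ratio was 0.87 and its adjusted p 0.0388, which made it a DEG.

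The other genes of the 10 with the smallest p on this side were all KRAB genes, as were 137 of the 166 tested. ZNF586 stood at 0.987, 0.80 and 0.897 CPM in the control and 0.381, 0.253 and 0.462 in the knockdown, ZNF577 at 2.47, 2.22 and 1.86 against 1.4, 1.33 and 0.858, and ZNF701 at 0.74, 0.677 and 0.961 against 0.508, 0.317 and 0.264. The groups did not overlap in any of them, but ZNF586 and ZNF701 rest on at most 16 and 15 counts per library. Their log2 ratios were 1.28, 0.86 and 1.11. ZNF333 completes the 10 and is described with the genes near Smyca.

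On the side of the knockdown, ZNF324 had the smallest p. Its level was 15.3, 16.5 and 16 CPM in the control and 22, 24.7 and 22.9 in the knockdown. The replicates were tight and the groups well apart, with a log2 ratio of -0.54 (SE 0.16, adjusted p = 0.142 by edgeR). Its neighbour ZNF324B, which shares 7.56% of its read-length windows with other genes, stood at 4.38, 5.72 and 2.37 CPM against 6.03, 7.79 and 8.98, again without overlap (log2 ratio -0.87, SE 0.35). ZNF584, in the same cluster, stood at 8.82, 10.2 and 8.13 CPM against 13.2, 11.6 and 12.2. The cluster that holds ZNF274 and ZNF586 on the side of the control also holds these 3 KRAB genes. Of its 30 tested genes, 5 stood higher in the control without overlap, beside 12.4% of all genes. On the other side it was these 3, beside 12.5% of all genes.

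ZNF574 and ZNF526 form a cluster of their own and have no KRAB box. ZNF574 stood at 38.6, 32.7 and 27.7 CPM in the control and 52.8, 56.7 and 35.8 in the knockdown, with an overlap between control replicate 1 and knockdown replicate 3. ZNF526 stood at 23.4, 20.1 and 11.4 against 26, 30.2 and 26.1, without overlap. Their log2 ratios were -0.55 and -0.58 with adjusted p-values of 0.208 and 0.267 by edgeR. Without control replicate 3 that of ZNF526 was -0.34.

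For ZNF91 and ZNF429 the result turned on control replicate 3. ZNF91, a KRAB protein with 31 fingers that is known to silence SVA retrotransposons, stood at 3.27, 3.94 and 8.07 CPM in the control and 6.41, 7.41 and 8.85 in the knockdown. The third control library lay among the knockdown libraries, and the log2 ratio was -0.57 (SE 0.37, adjusted p = 0.428 by edgeR). Without that library it was -1.07, with an adjusted p of 0.0412. ZNF429 had 0, 0 and 14 counts in the control and 13, 9 and 14 in the knockdown. Its log2 ratio was -1.37 (adjusted p = 0.51 by edgeR). ZNF429 passed the DEG criteria without control replicate 3, when both control libraries left were at 0 and the fitted ratio depended on the prior count. ZNF160, ZNF429, ZNF579 and ZNF91 were the 4 ZNF genes that did so, out of 167 tested (2.4%), while 10.5% of all genes tested passed without that library.

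The last 3 genes of the 10 with the smallest p on this side had groups that lay close together. ZNF792 stood at 4.2, 4.68 and 2.43 CPM against 6.29, 5.51 and 3.96, ZNF780A at 7.71, 7.94 and 6.53 against 7.75, 8.62 and 11.9, and ZNF576 at 5.12, 5.54 and 6.21 against 6.67, 7.29 and 6.80. ZNF576 alone of the 3 showed no overlap. None reached an unadjusted p of 0.05.

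Position along the chromosome was examined because Smyca lies among these genes. The 3 nearest on the side of the short arm end were ZNF490, ZNF791 and ZNF564, 1184, 1190 and 1272 kb away, and the 3 nearest toward the centromere were ZNF333, ZNF101 and ZNF14, 847, 5826 and 5868 kb away. ZNF333, the nearest of all, stood at 11.5, 8.43 and 10.2 CPM in the control and 6.98, 5.77 and 5.15 in the knockdown. Its groups did not overlap, and its log2 ratio was 0.75 (SE 0.24, adjusted p = 0.161 by edgeR). ZNF791 stood at 20.1, 16.2 and 22.2 CPM against 15.2, 12.8 and 20.4, with a log2 ratio of 0.27, and overlapped. ZNF490 had a log2 ratio of -0.02, whose sign changed with the scaling. ZNF101, at 8.95, 10.9 and 15.4 CPM against 11.8, 14.2 and 17.4, had a log2 ratio of -0.30. With 1 library left out, ZNF101 lay between -0.547 and -0.136 and ZNF791 between 0.127 and 0.468. ZNF564 had at most 4 counts in a library and ZNF14 had 0 in all 6, and neither was tested.

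Within 2 Mb of Smyca, 9 of 10 tested ZNF genes had a ratio above 1, with a median log2 ratio of 0.27. The same was true of 25 of 33 genes between 2 and 10 Mb (median 0.22) and of 76 of 123 genes beyond 10 Mb (median 0.17). By chromosome arm it was 38 of 48 in the short arm (median 0.24) and 72 of 118 in the long arm (median 0.15). Differences between these bins were not tested. Without control replicate 3 the counts were 6 of 10 within 2 Mb, 30 of 48 in the short arm and 60 of 119 in the long arm, with medians of 0.09, 0.12 and 0.01. On the side of the control, 18.8% of genes in the short arm and 18.6% in the long arm had groups that did not overlap, beside 12.4% of all genes, and without control replicate 3 it was 22.9% and 23.5%, beside 25.7%. On the side of the knockdown it was 0 of 48 and 6 of 118, beside 12.5% of all genes, and without control replicate 3 it was 6 of 48 and 21 of 119, beside 23.3%.

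**Figure D2:**
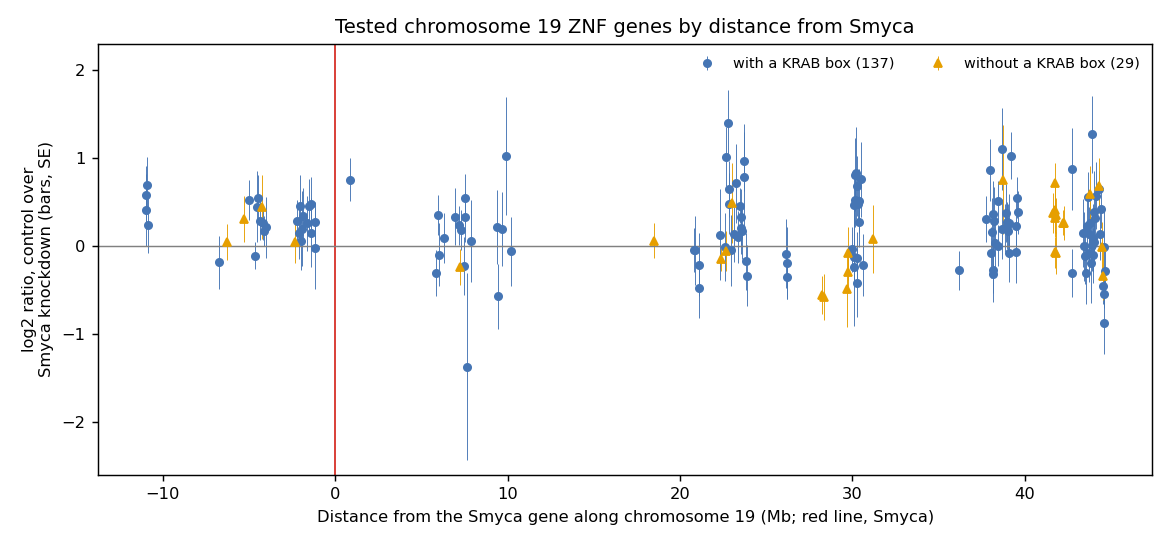
The log2 ratio of control over Smyca knockdown (vertical axis, bars are SE) of the 166 tested ZNF genes against their distance from Smyca along chromosome 19 in Mb (horizontal axis, red line at Smyca). The genes stand in columns, which are the clusters. ZNF333, the single point just right of the red line, lies at 0.75. Beyond 20 Mb, each cluster with more than 10 genes holds genes on both sides of 0, while some smaller clusters lie wholly below 0.

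Where neighbouring ZNF genes less than 500 kb apart were counted as 1 cluster, there were 20 clusters, of which 7 held a single gene and 8 held more than 10 genes each, 225 genes in all. The largest lay at the end of the long arm, from 57191500 to 58481230, with 43 genes. Of its 30 tested genes, 17 had a ratio above 1 and 13 below, with a median log2 ratio of 0.07. The cluster from 51571283 to 53580269, which holds ZNF160, ZNF577 and ZNF701, had 21 above and 5 below (median 0.25). On the short arm, the cluster from 11483427 to 12640098 had 12 above and 1 below (median 0.26), and the groups stood apart in 0 of its 13 tested genes, beside 12.4% and 12.5% of all genes on the side of the control and of the knockdown. The cluster from 19668796 to 24129968, which is the nearest to the centromere on that arm, with ZNF91 and ZNF429, had 11 above and 7 below (median 0.14). All these tallies rest on the 6 libraries and were not repeated by cluster without control replicate 3. Without it, ZNF440 and ZNF69 of the cluster from 11483427 fell to -0.31 and -0.25. In the cluster of ZNF160, ZNF83 and ZNF841 fell to -0.31 and -0.25, while ZNF649 moved the other way, to 0.02.

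In the cluster from 43525497 to 44500524, ZNF222 had a log2 ratio of 0.82, ZNF284 of 0.84 and ZNF224 of 0.69, while ZNF575 had -0.49 and ZNF234 had -0.42. None of them reached an unadjusted p of 0.05, and differences between members were not tested. Of its 18 tested genes, 9 lay on each side. ZNF224, a KRAB repressor, had its highest level by far in control replicate 3, with 6.11, 5.35 and 12 CPM in the control and 5.02, 4.88 and 4.62 in the knockdown. Without control replicate 3 its log2 ratio was 0.24. That of ZNF234 was then -0.90 (unadjusted p = 0.0213, adjusted p = 0.101 by edgeR). Those of ZNF222, ZNF284 and ZNF575 were 0.58, 0.74 and -0.29. In the small clusters of ZNF302 to ZNF792 and of ZNF546 to ZNF780A, all 7 tested genes had a ratio below 1.

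Counts are given apart for genes with and without a KRAB box. Of the 137 tested KRAB genes, 93 had a ratio above 1 (67.9%, beside 53.4% of all genes), with a median log2 ratio of 0.21, and 27 stood above the knockdown without overlap (19.7%) against 3 below it (2.19%). Of the 29 without a KRAB box, 17 had a ratio above 1 (58.6%), with a median of 0.06, and 4 stood above (13.8%) and 3 below (10.3%) without overlap, which is close to the shares of all genes, 12.4% and 12.5%. On other chromosomes, KRAB ZNF genes divided evenly, with 53 above and 52 below. Without control replicate 3, 76 of 138 KRAB genes on chromosome 19 had a ratio above 1 (median 0.05) and 14 of 29 without the box (median -0.02), and 33 KRAB genes stood above (23.9%) and 23 below (16.7%) without overlap, both under the shares of all genes at that setting. By number of fingers, groups that did not overlap on the side of the control were found in 15 of 34 tested genes with fewer than 9 fingers, 10 of 92 with 9 to 15 and 6 of 40 with more, beside 12.4% of all genes, and the median log2 ratios were 0.27, 0.17 and 0.25. For the first of these sets, without control replicate 3, 16 of 34 stood apart on that side (47.1%), beside 25.7% of all genes, and 20 of 34 had a ratio above 1. The 24 tested genes with the ETS motif had a median of 0.35 and the 142 without it 0.19. Without that library the former was 0.15. None of these contrasts was tested.

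Of the 5 most highly expressed members per kilobase, ZNF579 had the log2 ratio of 0.72 already given, and the other 4 had log2 ratios between -0.15 and 0.27. ZNF787, with 7 fingers, led with 123 CPM per kilobase, and its level was 182, 163 and 189 CPM in the control and 142, 162 and 140 in the knockdown. The groups were apart by a small margin, and the log2 ratio was 0.27 (SE 0.14, adjusted p = 0.339 by edgeR). ZNF444 stood at 94.1, 82.5 and 80.8 CPM against 81.3, 81.2 and 51.6, and overlapped. ZNF146, which consists of fingers alone, stood at 82.9, 88.2 and 86.3 CPM against 91, 93.9 and 101, lower in the control without overlap (log2 ratio -0.15, adjusted p = 0.554 by edgeR). ZNF580 stood at 31.5, 40.8 and 59 CPM against 48.2, 51.1 and 39.3, with no consistent side.

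Of the members with a role known in the field, several were barely expressed. ZNF93, which is known to silence LINE-1 elements, had 1, 0 and 12 counts in the control and 0, 1 and 26 in the knockdown, so that replicate 3 of both groups stood apart. ZNF331, an imprinted gene, had at most 3 counts in a library, ZNF568 at most 1 and ZNF382 had 0 in all 6. ZNF154, whose promoter is often methylated in tumours, had at most 12, and so did ZNF350, a partner of BRCA1. None of these 6 was tested. ZNF649, a transcriptional repressor, stood at 3.15, 3.51 and 2.69 CPM against 3.68, 2.79 and 3.37, and its small log2 ratio of -0.07 changed sign without control replicate 3 or knockdown replicate 1. ZNF175 stood at 5.49, 6.89 and 6.34 CPM against 5.08, 4.12 and 5.88, and overlapped.

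The partners through which KRAB proteins repress lay on the other side. Of a list of 20 such genes, all were tested and none was a DEG. The log2 ratio was below 0 in 18, with a median of -0.30, and an unadjusted p under 0.05 on the side of the knockdown was reached by 6 (30%), beside 8.74% of all genes. In 9 of them (45%), beside 12.5% of all genes, the 3 control libraries lay below the 3 knockdown libraries without overlap. TRIM28, the corepressor that the KRAB box binds, lies on chromosome 19 itself, beyond the last ZNF cluster. It stood at 657, 774 and 998 CPM in the control and 963, 1169 and 1018 in the knockdown, and the groups overlapped (log2 ratio -0.37, SE 0.18, adjusted p = 0.31 by edgeR).

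Among the partners the widest gap was that of UHRF1, which guides maintenance of DNA methylation, at 78.4, 130 and 102 CPM against 203, 255 and 164. The lowest knockdown library lay above the highest control library, and the log2 ratio was -1.0 (SE 0.23, adjusted p = 0.114 by edgeR). The methyltransferase it works with, DNMT1, stood at 363, 441 and 400 CPM against 513, 645 and 551. CHD4, the helicase of the NuRD complex, stood at 455, 468 and 346 CPM against 575, 575 and 719. Among the HP1 genes, CBX5 stood at 195, 198 and 183 CPM against 245, 259 and 275 and CBX1 at 83.7, 93 and 83.3 against 99.6, 124 and 113, while CBX3 overlapped. SUV39H1, a histone methyltransferase, stood at 27.2, 33.1 and 32.7 CPM against 37.1, 46.4 and 45.6. In the cases of DNMT1, CHD4, CBX5, CBX1 and SUV39H1 the groups did not overlap, and the log2 ratios were -0.51, -0.56, -0.44, -0.37 and -0.47, with unadjusted p-values under 0.05 and adjusted p-values between 0.147 and 0.211 by edgeR.

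HDAC2, EHMT2 and SMARCAD1 also showed no overlap, with log2 ratios of -0.23, -0.34 and -0.28, but did not reach an unadjusted p of 0.05. Groups overlapped for SETDB1 (log2 ratio -0.16), its stabiliser ATF7IP (-0.13), CHD3 (-0.26), HDAC1 (-0.09), MORC2 (-0.17) and ATRX (0.11). The same held for the HUSH complex genes MPHOSPH8 (-0.33), TASOR (-0.05) and PPHLN1 (0.01). For ATF7IP, HDAC1, MORC2, ATRX, TASOR and PPHLN1 the sign changed under at least 1 other setting. With 1 library left out, SETDB1 lay between -0.321 and -0.0296 and CHD3 between -0.451 and -0.0094. Without control replicate 3 the list kept a median of -0.33, with 17 of 20 below 0, and 1 gene, UHRF1, passed the DEG criteria (5%, beside 10.5% of all genes) with an adjusted p of 0.0463. With DESeq2 UHRF1 was again the 1 gene of the list to pass (adjusted p = 0.0044), beside 5.89% of all genes.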

How the data were processed

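Total RNA of 6 libraries labelled MDA-MB-231 was sequenced after rRNA removal, from strand-specific libraries. The authors mapped reads with TopHat2 2.0.12 to hg38 and counted them per gene. Each file deposited by the authors gives raw counts of 58302 Ensembl genes and the FPKM values derived from them and the gene length. For control replicate 2 the FPKM did not match the counts, and whole reads were recovered from it (16759253 reads, 100% of values of 1 to 50 reads whole within 0.02). FPKM was otherwise used for gene lengths only. How reads with several matches were treated, and the strand setting of the counting, are not given in the sources used here.

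Symbols and positions came from GENCODE release 44, which matched 57532 identifiers and all 249 members. Counts were tested over all genes in R 4.3.3 with edgeR 4.0.16 (TMM, filterByExpr, quasi-likelihood test, both groups in 1 fit, Benjamini-Hochberg adjustment over 15075 genes), without covariates. CPM were computed with the TMM-scaled library sizes. Total counts lay between 14999307 and 16501085. The code was tested on simulated counts. The DEG criteria are those of the study. KRAB boxes were found in the longest GENCODE coding sequence of each gene with a profile search (pyhmmer 0.12.3, E under 0.001) and fingers by their C2H2 pattern. This replaced the planned RefSeq proteins. Promoters came from RefSeq (GRCh38.p14).

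Members and lists were chosen with earlier results of these data known. Genes were named by a rule: the 10 smallest p in each direction, the 5 highest per kilobase, the 3 nearest to Smyca on each side, 12 members with known roles, 20 KRAB repressor partners and Smyca. Other genes of clusters were named after their values had been seen. Alternatives were RLE factors, total counts, filters of 1 count in any library or 10 in each, DESeq2 1.42.0, the replicate block, each library left out, FPKM reads for control replicate 2 and an adjusted p under 0.10. The values by subset without control replicate 3 and the epithelial markers were added later, once values were known. The result of 1 further marker gene is not reported here.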

Additional observations from a re-analysis of the deposited data

How the results depend on the processing

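The number of DEGs among the ZNF genes was 0 with RLE factors, total counts, at least 10 counts in every library, the FPKM reads and an adjusted p under 0.10, but 1 without a filter beyond 1 count (ZNF160, of 210 tested, where 3.01% of all genes passed) and 2 with DESeq2 (5.89% of all genes). It ran from 0 to 4 when each library was left out in turn, with 4 without control replicate 3. The number with an unadjusted p under 0.05 was 17, and 31 with the FPKM reads of control replicate 2 (10.6% and 9.81% of all genes). Leaving out 1 library gave 7 to 24, with 9 without control replicate 1, 10 without knockdown replicate 1 and 7 without knockdown replicate 2. The shares of all genes on the side of the control and of the knockdown moved as well, from 6.02% and 4.75% without knockdown replicate 2 to 15.7% and 13.9% without control replicate 3. The median log2 ratio of 0.20 lay between 0.027 and 0.247 when 1 library was left out, the lowest without control replicate 3, and between 0.168 and 0.276 under the other settings. Total counts moved the median of all genes from 0.04 to 0.11, and no filter moved it to 0.11, which left the ZNF genes 0.05 above it.

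The replicate numbers of the labels did not pair the libraries, since the same-number correlations of deviations were 0.05, 0.09 and 0.02. With the replicate block there were 0 DEGs, 18 genes with an unadjusted p under 0.05 (15 on the side of the control and 3 on the other, beside 9.23% and 7.81% of all genes) and a median of 0.18. Of 660 values of 51 named genes, 628 kept their direction and side of the threshold, 13 came past it and 19, in 9 genes with small ratios, changed sign. With each library left out in turn, ZNF580 lay between -0.359 and 0.113, ZNF490 between -0.275 and 0.430, ZNF649 between -0.183 and 0.0163, ATF7IP between -0.275 and 0.145, HDAC1 between -0.152 and 0.0249, ATRX between -0.0162 and 0.336, MORC2 between -0.315 and 0.0042, TASOR between -0.152 and 0.104 and PPHLN1 between -0.0176 and 0.02. The sign of PPHLN1 also changed with RLE and with DESeq2 (-0.0067 in both) and without a filter (-0.0249), that of ZNF490 with total counts (0.0424) and the replicate block (0.0132), that of TASOR with total counts (0.0216) and that of ZNF580 with the FPKM reads (0.227). The causes were not tested. At a few counts per library, as for ZNF586, ZNF701 and ZNF429, ratios are imprecise, and the 83 untested genes could not be compared at this depth.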
